A study of Homo sapiens with 3 samples.

Results

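The 9 genes described here build the MHC class I pathway, and they were measured in RH30, an established cell line of alveolar rhabdomyosarcoma, a childhood tumour with myoblast features. They were chosen by name, and every probe set that names only 1 of them was used, 26 probe sets of the 19064 that name 1 gene and 22277 on the array. They are the classical heavy chains HLA-B and HLA-C, the non-classical heavy chains HLA-E and HLA-F, the light chain B2M, the peptide transporter subunits TAP1 and TAP2, tapasin (TAPBP) and the aminopeptidase ERAP1. B2M lies on chromosome 15, ERAP1 on chromosome 5 and the other genes on chromosome 6. Cells had been given 10 µM of an anti-MYCN PNA (peptide nucleic acid, a synthetic DNA mimic whose bases hang on an amide chain), 10 µM of a mutated PNA as its control, or nothing, and were taken after 12 hours. Their RNA was hybridised to Affymetrix expression arrays, 1 array for each of the 3 conditions. Nothing in the labels says that the cultures were independent of each other. The array titled and described as untreated carries a source name that says mutated PNA, and it is called untreated by its title, so every statement about a single control rests on that label.

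As each condition has a single array, replicate errors and tests could not be had, and what follows compares one array with another. The number of arrays limits the precision throughout. The values are MAS5 signals, a linear brightness per probe set, and their 2% trimmed mean was 500.2 on each array. Signals under 23.4, the 25th percentile over all arrays, were set to that floor before log2 was taken, and values at the floor have no order. Genes are counted when their brightest probe set had a mean signal of at least 117, the 50th percentile. Of 11963 genes, 6745 reached it.

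The anti-MYCN PNA array stood apart from the controls as a whole. The 24 probe sets for bacterial poly-A spikes were dimmer on it, with a median ratio of anti-MYCN PNA over mutated PNA of 0.382 and of anti-MYCN PNA over untreated of 0.410. Its dim end was brighter, with a 25th percentile of 28.3 against 22.5 in mutated PNA and 20.7 in untreated cells. Of its gene probe sets 22.9% were under the floor, against 25.5% for mutated PNA and 26.6% for untreated. MYCN, the gene the PNA was directed at, read 2202 in anti-MYCN PNA, 2804 in mutated PNA and 3313 in untreated cells. Of 13 rhabdomyosarcoma and myoblast markers 8 passed the filter, 6 of them above both controls. Of all genes past the filter 47.9% were above both. The myogenic factor MYOG lay between the controls, at 1024 in anti-MYCN PNA, 1238 in mutated PNA and 748 in untreated cells. So did the acetylcholine receptor subunit CHRNA1, at 3286 in anti-MYCN PNA, 2795 in mutated PNA and 4176 in untreated cells. CHRNG, of the same receptor and below the filter, read 22.0 in anti-MYCN PNA, 64.9 in mutated PNA and 84.6 in untreated cells. The cadherin CDH15 read 943.2 in anti-MYCN PNA, 379 in mutated PNA and 492 in untreated cells, and PAX3, a fusion partner gene in this tumour, read 221 in anti-MYCN PNA, 197 in mutated PNA and 185 in untreated cells. MYOD1, the myogenic master regulator, read 7834 in anti-MYCN PNA, 6266 in mutated PNA and 6715 in untreated cells, and desmin (DES) read 1609 in anti-MYCN PNA, 923 in mutated PNA and 911 in untreated cells. The part of the spikes and of the brighter dim end in any result below was not tested.

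Class I molecules show peptides made inside a cell to CD8+ T cells. Peptides cut by the proteasome are moved into the endoplasmic reticulum by the TAP1-TAP2 transporter, trimmed by ERAP1, and loaded by tapasin onto a heavy chain paired with beta-2 microglobulin, the product of B2M. HLA-B and HLA-C present to T cells and to killer cell receptors, and HLA-E presents mainly leader peptides of other class I chains to NKG2A receptors on natural killer cells. The role of HLA-F is less settled, with open conformers bound by natural killer receptors. Transcription of these genes is raised by interferons through IRF factors, by NF-kappaB and, for the heavy chains and B2M, by an enhanceosome of RFX, CREB/ATF and NF-Y factors with the coactivator NLRC5. Low class I is known in many embryonal-type tumours, and in neuroblastoma low class I has been linked to MYCN.

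The upstream sequences of 5 of these genes are shown, a dim and a bright gene of the set among them, so that the letters of the elements named above can be seen side by side. RefSeq promoters of GRCh38.p14 were matched by symbol for 8 of the 9 genes, 10 starts in all, and the 250 bases before the start are given 5′ to 3′. Capitals mark matches on either strand to the IRF core AANNGAAA, the NF-kappaB consensus, the CRE core TGACG or the CCAAT box, which overlap in places.
HLA-B (chr6:31357180-31357429, minus strand): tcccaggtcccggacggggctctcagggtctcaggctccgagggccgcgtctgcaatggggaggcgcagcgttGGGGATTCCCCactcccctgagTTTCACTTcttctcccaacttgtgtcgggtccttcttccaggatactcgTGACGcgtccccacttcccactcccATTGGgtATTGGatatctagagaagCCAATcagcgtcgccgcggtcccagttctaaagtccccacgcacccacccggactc
HLA-F (chr6:29723184-29723433, plus strand): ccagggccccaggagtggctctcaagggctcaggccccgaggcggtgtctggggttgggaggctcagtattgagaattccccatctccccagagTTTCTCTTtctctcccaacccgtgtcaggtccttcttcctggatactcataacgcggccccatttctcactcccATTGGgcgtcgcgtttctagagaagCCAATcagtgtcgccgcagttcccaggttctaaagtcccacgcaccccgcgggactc
B2M (chr15:44711267-44711516, plus strand): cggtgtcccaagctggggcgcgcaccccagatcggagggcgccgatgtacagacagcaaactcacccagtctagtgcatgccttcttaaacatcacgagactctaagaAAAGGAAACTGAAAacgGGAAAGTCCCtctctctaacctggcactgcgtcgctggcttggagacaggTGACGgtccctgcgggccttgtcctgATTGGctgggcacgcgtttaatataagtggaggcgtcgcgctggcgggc
TAP1 (chr6:32853705-32853954, minus strand): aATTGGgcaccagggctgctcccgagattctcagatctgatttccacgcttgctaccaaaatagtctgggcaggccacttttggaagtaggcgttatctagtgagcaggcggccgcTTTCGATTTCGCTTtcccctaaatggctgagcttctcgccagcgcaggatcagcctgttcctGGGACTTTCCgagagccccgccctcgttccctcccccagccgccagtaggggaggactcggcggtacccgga
TAPBP (chr6:33314079-33314328, minus strand): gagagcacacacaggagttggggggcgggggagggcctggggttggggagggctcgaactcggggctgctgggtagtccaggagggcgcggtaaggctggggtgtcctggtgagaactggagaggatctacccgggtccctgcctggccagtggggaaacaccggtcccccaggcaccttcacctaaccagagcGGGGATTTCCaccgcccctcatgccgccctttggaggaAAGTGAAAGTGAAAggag

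Of all 35116 promoters of that length in the table, 20.3% hold the IRF core, 9.96% the NF-kappaB consensus, 21.2% the CRE core and 32.0% a CCAAT box. HLA-B has all of them: the NF-kappaB match begins 177 bases before the start, the IRF core lies at 155 to 148, the CRE core at 106 to 102, and CCAAT boxes follow at 81, 74 and 56. HLA-C has the same set, with the IRF core at 151 to 144 and the CRE core at 105 to 101. HLA-F keeps the IRF core at 156 to 149 and CCAAT boxes at 82 and 57, and no letters matched the NF-kappaB or CRE patterns. B2M has 2 overlapping IRF cores at 142 to 129, an NF-kappaB match at 125 to 116, a CRE core at 75 to 71 and a CCAAT box at 49. In TAPBP a doubled IRF core ends 5 bases before the start, behind an NF-kappaB match at 56 to 47. TAP1 has a doubled IRF core at 134 to 121 and an NF-kappaB match at 72 to 63 at the start shown, and none of the 4 patterns at its other start. TAP2 has a doubled IRF core at 62 to 49 and a CRE core at 35 to 31. A match describes these letters and does not show that a factor binds there in RH30 cells.

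The light chain was among the brightest signals and the classical heavy chains were among the dim ones on every array. The percentile given is the share of gene probe sets on the same array with a lower signal. Probe sets differ in how strongly they bind their transcript, so percentiles do not order one gene against another. The B2M probe sets stood at percentiles of 97.9 and 98.1 in anti-MYCN PNA, 98.2 and 98.0 in mutated PNA and 98.2 and 97.7 in untreated cells. The 7 probe sets of HLA-B and HLA-C had a median percentile of 28.9 in anti-MYCN PNA, 30.9 in mutated PNA and 20.7 in untreated cells, and their highest was 53.9 in anti-MYCN PNA, 41.9 in mutated PNA and 49.8 in untreated cells. The 6 probe sets of HLA-E and HLA-F had medians of 61.2 in anti-MYCN PNA, 53.7 in mutated PNA and 53.3 in untreated cells. The 11 probe sets of TAP1, TAP2, TAPBP and ERAP1 had medians of 34.8 in anti-MYCN PNA, 26.2 in mutated PNA and 23.1 in untreated cells.

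For scale, the 16 leukocyte markers measured, genes such as the pan-leukocyte phosphatase PTPRC, had median percentiles of 32.0 in anti-MYCN PNA, 24.6 in mutated PNA and 24.1 in untreated cells. The 10 class II and class II chaperone genes had 19.4 in anti-MYCN PNA, 23.7 in mutated PNA and 26.1 in untreated cells. Each gene of these lists was taken by its brightest probe set. By that measure HLA-B stood at percentiles of 22.3 in anti-MYCN PNA, 41.9 in mutated PNA and 19.8 in untreated cells. HLA-C stood at 53.9 in anti-MYCN PNA, 39.2 in mutated PNA and 49.8 in untreated cells. HLA-B thus lay within the range of both lists on every array, and HLA-C did so in mutated PNA cells. In untreated cells HLA-C stood above all of these genes except LAPTM5 of the leukocyte list, at 77.5, and CTSS of the class II list, at 62.3. In anti-MYCN PNA cells it stood above all but LAPTM5, at 81.8, with CTSS at 52.7. These are positions of signals and not an order of genes. PTPRC read 34.0 in anti-MYCN PNA, 3.6 in mutated PNA and 1.5 in untreated cells, and CD74, the class II invariant chain, read 18.2 in anti-MYCN PNA, 17.9 in mutated PNA and 20.2 in untreated cells. Detection calls were not used here, so a signal near the floor cannot be told apart from background. All 7 classical heavy chain probe sets carry the suffix _x_at, given to sets in which some probes fit other transcripts too. These genes are also highly variable between people, and the alleles of RH30 and their match to the probes were not known here.

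**Figure D1:**
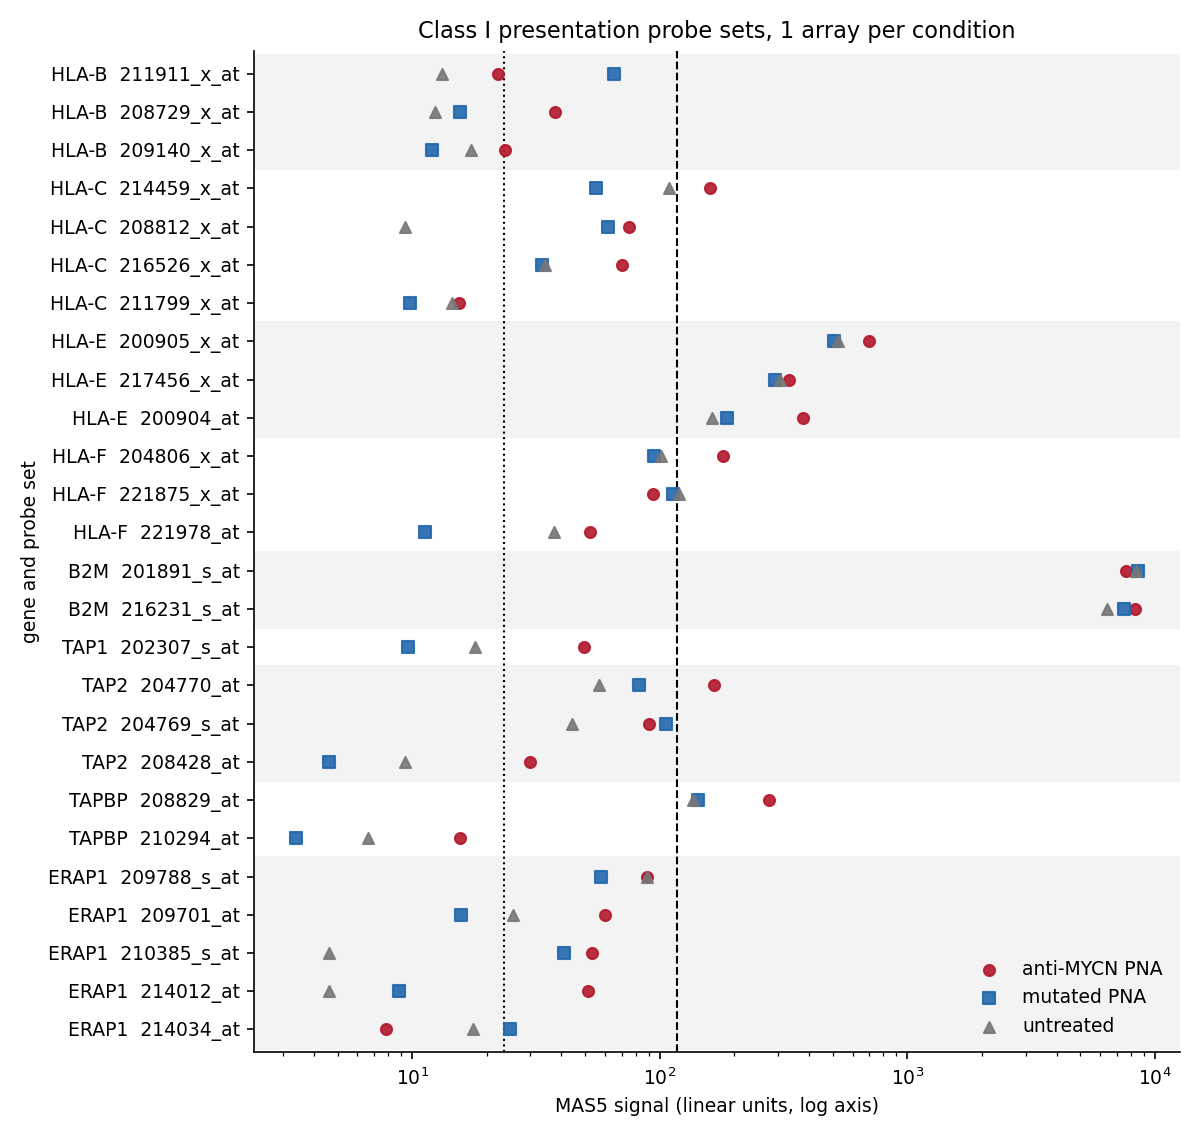
MAS5 signal (linear units on a log axis) of the 26 probe sets by gene on the anti-MYCN PNA, mutated PNA and untreated arrays, with the floor of 23.4 dotted and the filter of 117 dashed. B2M lies between 6419 and 8511, and the highest HLA-B point is 65.3.

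**Figure D2:**
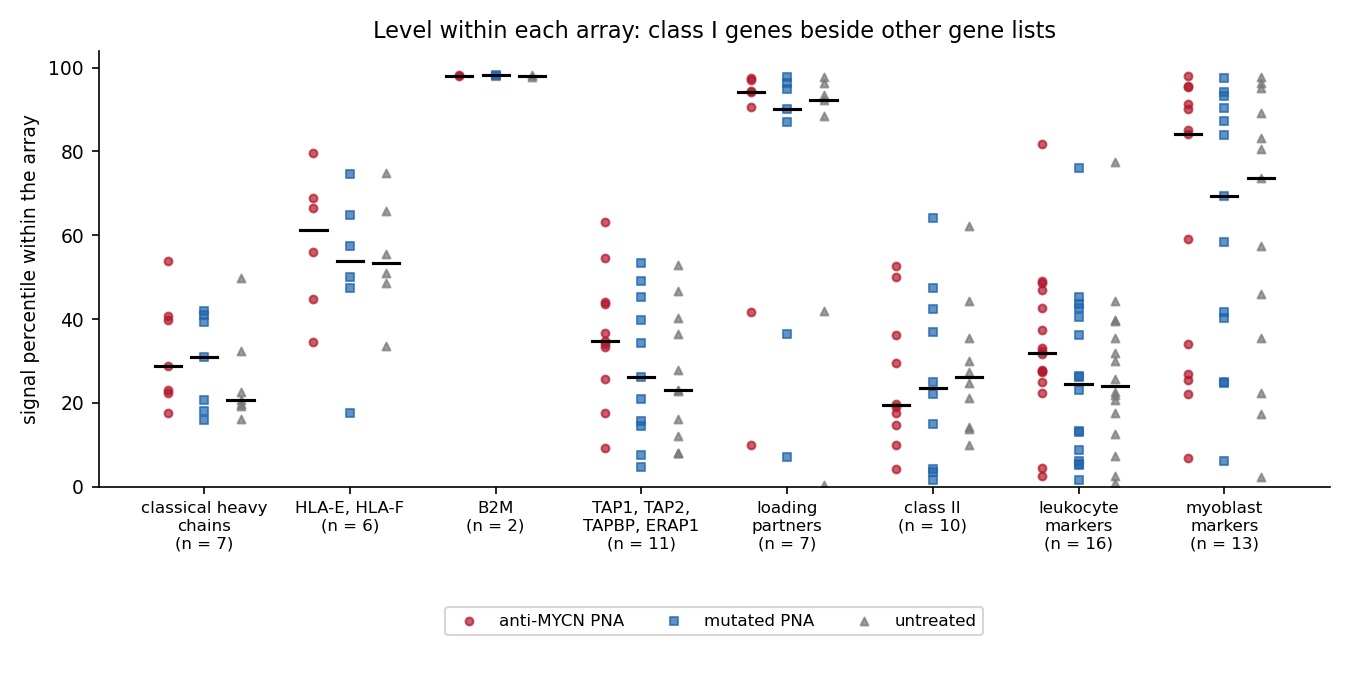
Signal percentile within each array for the class I probe sets and, for comparison, the brightest probe set of each gene of 4 other lists. Points are probe sets (n of them), black lines are their medians, the B2M points lie near 98, and the classical heavy chains overlap the leukocyte and class II genes.

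HLA-B was at or near the floor. Its brightest probe set, 211911_x_at, read 22.2 in anti-MYCN PNA, 65.3 in mutated PNA and 13.2 in untreated cells. Only the mutated PNA array was above the floor there, and the difference to it was −1.48 on the log2 scale or larger in size. Probe set 208729_x_at read 37.8 in anti-MYCN PNA, 15.6 in mutated PNA and 12.4 in untreated cells, and 209140_x_at read 23.7 in anti-MYCN PNA, 12.0 in mutated PNA and 17.2 in untreated cells, both highest in anti-MYCN PNA cells and under the floor on both controls. The probe sets thus disagree on which array is highest, and HLA-B has no settled direction.

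HLA-C was below the filter as well. Probe set 214459_x_at read 160.1 in anti-MYCN PNA, 55.4 in mutated PNA and 109 in untreated cells, a log2 difference of 1.53 to mutated PNA and 0.55 to untreated. The controls themselves lay 0.98 apart, so the distance to the nearer control was smaller than the distance between the controls. Probe set 216526_x_at read 70.5 in anti-MYCN PNA, 33.4 in mutated PNA and 34.5 in untreated cells, log2 differences of 1.08 to mutated PNA and 1.03 to untreated, with the controls close together. When the 19064 probe sets are put into 10 equal classes by mean signal, 16.2% of the 1907 in its class were as far or further above both controls. Probe set 208812_x_at read 74.8 in anti-MYCN PNA, 61.6 in mutated PNA and 9.3 in untreated cells, the last under the floor. Probe set 211799_x_at was under the floor on all arrays, at 15.4 in anti-MYCN PNA, 9.8 in mutated PNA and 14.4 in untreated cells.

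HLA-E, the ligand of NKG2A, was the heavy chain with signals above the filter on all 3 probe sets, each highest in anti-MYCN PNA cells. Probe set 200904_at read 378 in anti-MYCN PNA, 187 in mutated PNA and 162 in untreated cells, log2 differences of 1.01 to mutated PNA and 1.22 to untreated. In its signal class, 2.57% of 1906 probe sets were as far above both controls. The brightest, 200905_x_at, read 699.5 in anti-MYCN PNA, 506 in mutated PNA and 524 in untreated cells, differences of 0.47 to mutated PNA and 0.42 to untreated, and 14.9% of its class was as far above. Probe set 217456_x_at read 333.5 in anti-MYCN PNA, 291 in mutated PNA and 306 in untreated cells, differences of 0.20 to mutated PNA and 0.12 to untreated, with 40.1% of its class as far above. The direction was shared and the size ran from a difference of 0.12 to one of 1.22 within this gene. The larger values came from the probe set without the cross-matching suffix.

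The probe sets of HLA-F disagreed in direction. Probe set 204806_x_at read 179.6 in anti-MYCN PNA, 94.5 in mutated PNA and 101 in untreated cells, differences of 0.93 to mutated PNA and 0.83 to untreated. It reached the filter only through the anti-MYCN PNA array. Probe set 221875_x_at read 93.6 in anti-MYCN PNA, 112.5 in mutated PNA and 119 in untreated cells, differences of −0.27 to mutated PNA and −0.35 to untreated. The third, 221978_at, read 52.4 in anti-MYCN PNA, 11.3 in mutated PNA and 37.4 in untreated cells, with mutated PNA under the floor.

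B2M, whose product pairs with class I heavy chains, differed little and its probe sets pointed opposite ways. Probe set 201891_s_at read 7629.9 in anti-MYCN PNA, 8511 in mutated PNA and 8367 in untreated cells, differences of −0.16 to mutated PNA and −0.13 to untreated. Probe set 216231_s_at read 8330.0 in anti-MYCN PNA, 7507 in mutated PNA and 6419 in untreated cells, differences of 0.15 to mutated PNA and 0.38 to untreated. For 95% of probe sets in the brightest class the controls differed by at most 0.35, and B2M exceeded that only in the comparison of 216231_s_at with untreated cells. For anti-MYCN PNA the like limit was 0.75 to mutated PNA and 0.72 to untreated, and both B2M probe sets stayed within it.

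Tapasin (TAPBP), which bridges the transporter and the empty heavy chain, had the largest difference among the genes past the filter when each is taken by its brightest probe set. Probe set 208829_at read 275 in anti-MYCN PNA, 142 in mutated PNA and 136.5 in untreated cells, with the controls close together, and the differences were 0.95 to mutated PNA and 1.01 to untreated. Of the 1906 probe sets of its signal class, 3.31% were as far above both. Its other probe set, 210294_at, read 15.6 in anti-MYCN PNA, 3.4 in mutated PNA and 6.6 in untreated cells, all under the floor.

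The transporter genes were dim. TAP1 has a single probe set, 202307_s_at, which read 49.2 in anti-MYCN PNA, 9.6 in mutated PNA and 17.9 in untreated cells. Both controls were under the floor, so the difference to each is at least 1.07, taken to the floor, and 17.7% of its class was as far above both. Probe set 204770_at of TAP2 read 165 in anti-MYCN PNA, 82.2 in mutated PNA and 57.0 in untreated cells, differences of 1.01 to mutated PNA and 1.53 to untreated, and 6.72% of its class was as far above both. Probe set 204769_s_at read 90.5 in anti-MYCN PNA, 105.6 in mutated PNA and 44.3 in untreated cells, with anti-MYCN PNA between the controls. Probe set 208428_at read 30.0 in anti-MYCN PNA, 4.6 in mutated PNA and 9.3 in untreated cells, above the floor in anti-MYCN PNA cells alone.

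ERAP1, which trims peptides to the length that class I binds, had 5 probe sets, all below the filter. Its brightest, 209788_s_at, read 88.6 in anti-MYCN PNA, 57.6 in mutated PNA and 88.5 in untreated cells, so anti-MYCN PNA and untreated were level. Probe set 209701_at read 60.0 in anti-MYCN PNA, 15.7 in mutated PNA and 25.5 in untreated cells, and 214012_at read 51.2 in anti-MYCN PNA, 8.8 in mutated PNA and 4.6 in untreated cells. Both were highest in anti-MYCN PNA cells. The differences of the first were at least 1.36 to mutated PNA, which was under the floor, and 1.23 to untreated. Those of the second were at least 1.13 to each control. In their signal class 12.3% of probe sets were as far above both as the first, and 15.6% as the second. Probe set 210385_s_at read 53.3 in anti-MYCN PNA, 41.0 in mutated PNA and 4.6 in untreated cells. Probe set 214034_at was lowest in anti-MYCN PNA cells, at 7.8 in anti-MYCN PNA, 24.7 in mutated PNA and 17.5 in untreated cells, with anti-MYCN PNA and untreated under the floor.

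**Figure D3:**
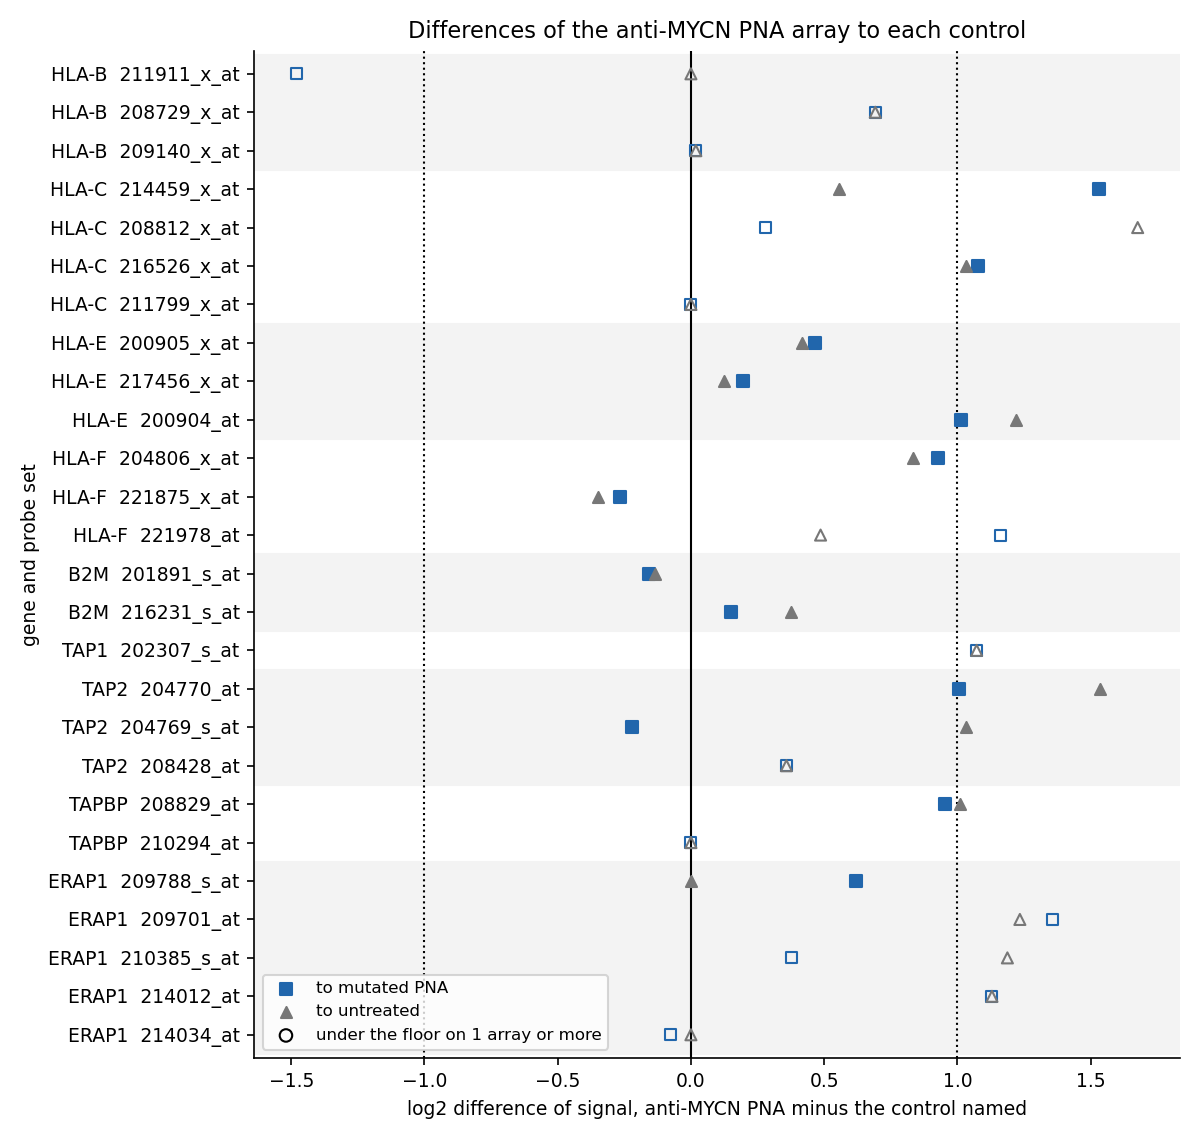
Log2 difference of signal, anti-MYCN PNA minus mutated PNA (squares) and minus untreated (triangles), for the 26 probe sets, with open symbols where at least 1 array was under the floor of 23.4 and dotted lines at a 2-fold difference. Points of HLA-E, TAPBP and TAP1 lie at or above 0, and those of HLA-F, B2M and TAP2 lie on both sides of it.

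Across the 26 probe sets, 19 were higher in anti-MYCN PNA cells than in both controls after the floor was applied, and 2 were lower than both. That is 73.1%, against 41.1% of all 19064 probe sets that name 1 gene and 44.5% when that share is averaged over the signal classes of the 26. Their median log2 difference was 0.42 to mutated PNA and 0.52 to untreated, and it was 0.00 in both comparisons over all probe sets. Of all 19064, 2631 were under the floor on all arrays, where the difference is 0. Most of the 26 lie in signal classes with mean signals from 20.9 to 133. The medians of those classes were 0.20 to 0.31 to mutated PNA and 0.22 to 0.41 to untreated. At least 2-fold above both controls were 6 of the 26, against 4.99% of all probe sets and 8.67% averaged over their signal classes. The 6 belong to HLA-C, HLA-E, TAP1, TAP2 and ERAP1, 2 of them to ERAP1, and 5 were below the filter. These 19 include 1 of HLA-B, 23.7 against the floor of 23.4, and 1 of ERAP1, 88.6 against 88.5 in untreated cells. Probe sets of 1 gene share a transcript, and both comparisons use the same anti-MYCN PNA array. In the leukocyte list, 10 of 16 genes were also above both controls after the floor and 1 was below, with a summed signal of 1599 in anti-MYCN PNA, 992 in mutated PNA and 997 in untreated cells. PTPRC was under the floor on both controls. In the other lists of genes of other cells, 3 of 10 class II, 3 of 7 endothelial and 5 of 10 fibroblast and matrix genes were above both controls after the floor. Class II signals summed to 450.9 in anti-MYCN PNA, 549.5 in mutated PNA and 478 in untreated cells, lowest in anti-MYCN PNA. The leukocyte list thus had the higher share and the class II list the lower one beside the 41.1% of all probe sets. The lists count the brightest probe set of each gene and the 41.1% counts every probe set, so these shares are not like for like. The part of these lists in the class I values was not tested.

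By gene, 4 of the 9 passed the filter: HLA-E, HLA-F, B2M and TAPBP, with HLA-F passing through the anti-MYCN PNA array alone. Over the whole array 6745 of 11963 genes passed it. For anti-MYCN PNA against mutated PNA none of the 4 was at least 2-fold higher, where 2.70% of the 6745 genes were. TAPBP and HLA-F were at least 1.5-fold higher, against a background of 13.1%, and none was 1.5-fold lower, against 10.7%. HLA-F was counted only because its anti-MYCN PNA signal was high, so nothing is read from its call. For anti-MYCN PNA against untreated, TAPBP was at least 2-fold higher, against 3.07% of all genes. That call was lost with quantile normalization, where the difference was 0.91, and with median scaling, where it was 0.81. Again TAPBP and HLA-F were at least 1.5-fold higher, against 13.1%, and none was 1.5-fold lower, against 10.4%. Above both controls at 2-fold were none of the 4 and 1.16% of all genes. At 1.5-fold above both were the same TAPBP and HLA-F, against 8.27%, and none was 1.5-fold below both, against 7.37%. The median over the 4 was 0.70 to mutated PNA and 0.62 to untreated, against 0.06 in both comparisons over all genes. With the filter set on the mean of the controls, which leaves HLA-F out, it was 0.47 to mutated PNA and 0.42 to untreated, against 0.047 and 0.051 over all genes. With so few genes these shares are descriptions. Over all genes, the balance of calls depended on the scaling: against mutated PNA 182 genes were 2-fold higher and 157 lower, 145 and 199 with quantile normalization and 83 and 319 with median scaling. Against untreated 207 were higher and 156 lower, 161 and 192 with quantile normalization, and 82 and 338 with median scaling. The direction of HLA-E and TAPBP by their brightest probe sets was the same under all of these scalings.

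The controls lay close together for the genes past the filter. Of the 4, none differed by 2-fold or 1.5-fold between mutated PNA and untreated, where 0.371% of all genes were 2-fold higher, 2.40% were 1.5-fold higher and 2.27% were 1.5-fold lower. Their median difference was −0.01, against 0.00 over all genes. Some dim members varied more between the controls. The difference of mutated PNA to untreated was 1.48 for HLA-B probe set 211911_x_at, 1.40 for HLA-C probe set 208812_x_at, 1.25 for TAP2 probe set 204769_s_at and −0.98 for HLA-C probe set 214459_x_at. The limit that 95% of their signal class stayed within was 1.21 for HLA-B 211911_x_at, 1.53 for HLA-C 208812_x_at, and 1.24 for TAP2 204769_s_at and HLA-C 214459_x_at. The HLA-B and TAP2 values thus exceeded it.

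The proteasome supplies the peptides. PSME1, a subunit of the PA28 activator, read 1524 in anti-MYCN PNA, 844 in mutated PNA and 829 in untreated cells, differences of 0.85 to mutated PNA and 0.88 to untreated. PSMB10, an interferon-inducible catalytic subunit, read 214.6 in anti-MYCN PNA, 157 in mutated PNA and 96.4 in untreated cells, with the controls themselves 0.71 apart. Of the 4 genes of this list on the array, these 2 passed the filter. The other 2 are the catalytic subunits PSMB8, at 3.3 in anti-MYCN PNA, 2.7 in mutated PNA and 2.2 in untreated cells, and PSMB9, at 3.3 in anti-MYCN PNA, 2.6 in mutated PNA and 24.0 in untreated cells, named after their values were seen. Both are encoded beside TAP1 and TAP2. The constitutive counterparts were bright: PSMB6 read 3695 in anti-MYCN PNA, 2742 in mutated PNA and 2684 in untreated cells, differences of 0.43 to mutated PNA and 0.46 to untreated. PSMB5 differed by 0.24 to mutated PNA and 0.17 to untreated, and PSMB7 by −0.043 and −0.048.

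Partners in the endoplasmic reticulum were bright and close to the controls. Of 7 on the array, 5 passed the filter, and none was 1.5-fold from both controls. Of all genes past the filter 8.27% were 1.5-fold above both and 7.37% below both, so none of 5 is near that share. The chaperone calreticulin (CALR) read 2699.9 in anti-MYCN PNA, 1599 in mutated PNA and 2073 in untreated cells, differences of 0.76 to mutated PNA and 0.38 to untreated. The chaperone calnexin (CANX) differed by 0.24 to mutated PNA and 0.20 to untreated. Of the translocon subunits, SEC61A1 differed by 0.49 to mutated PNA and 0.29 to untreated, and SEC61B by −0.085 and −0.13. The list median was 0.24 to mutated PNA and 0.20 to untreated.

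Of 10 interferon signalling genes on the array 7 passed the filter, and none was 1.5-fold from both controls. The like shares of all genes were 8.27% above both and 7.37% below both, so a count of none says little. Above both controls were 3 of the 7 and below both 2, where 47.9% of all genes past the filter were above and 37.6% below. IRF1, the interferon-induced activator of class I promoters, read 270.3 in anti-MYCN PNA, 117 in mutated PNA and 198 in untreated cells. Its difference to mutated PNA was 1.21, and the controls themselves lay 0.75 apart. The kinase TYK2 differed by 0.62 to mutated PNA and 0.34 to untreated, the receptor chain IFNGR1 by −0.16 and −0.48, and the receptor chain IFNAR2 by −0.33 and −0.10. The list median was 0.15 to mutated PNA and 0.022 to untreated.

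Among the factors of the class I promoter, 11 of 12 passed the filter, 4 above and 4 below both controls. Of all genes past the filter, 47.9% were above both and 37.6% below. At least 1.5-fold lower than both were 3 of the 11, against the background of 7.37% of all genes. CREB1, which binds the CRE, read 267 in anti-MYCN PNA, 423 in mutated PNA and 451.0 in untreated cells. NFYB, a subunit of the CCAAT-binding factor, read 387 in anti-MYCN PNA, 634 in mutated PNA and 594 in untreated cells, and RFXAP, of the RFX complex, read 145 in anti-MYCN PNA, 218 in mutated PNA and 238 in untreated cells. Other subunits of the same complexes, NFYA, NFYC, RFX5 and RFXANK, named after their values were seen, were not below both controls. USF2, an E-box factor, lay above both controls, at 901 in anti-MYCN PNA, 437 in mutated PNA and 628 in untreated cells. The list median was 0.019 to mutated PNA and −0.043 to untreated.

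Few class I-like and class II genes were bright enough to compare. None of those was 1.5-fold above both controls, against 8.27% of all genes. The class II gene CTSS was 1.5-fold below both, against 7.37%. Of 10 class I-like genes on the array 3 passed the filter: PROCR, the endothelial protein C receptor, with differences of −0.16 to mutated PNA and −0.15 to untreated, FCGRT, the neonatal Fc receptor, with 0.11 and 0.18, and MICA, a ligand of NKG2D, with −0.087 and −0.20. Of 10 class II genes only CTSS, the protease cathepsin S, passed, at 148.5 in anti-MYCN PNA, 280.3 in mutated PNA and 249.7 in untreated cells. Genes of other cell types were mostly dim, with 1 of 16 leukocyte, 0 of 7 endothelial and 3 of 10 fibroblast and matrix markers past the filter. Over the whole array 6745 of 11963 genes passed it. The leukocyte one, LAPTM5, a lysosomal membrane protein, read 805.5 in anti-MYCN PNA, 559 in mutated PNA and 614 in untreated cells. The matrix gene FBLN1 read 240.1 in anti-MYCN PNA, 133.0 in mutated PNA and 116 in untreated cells. PDGFRA and COL3A1, also fibroblast genes, were lower than both controls, with differences to the nearer one of −0.22 and −0.11.

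**Figure D4:**
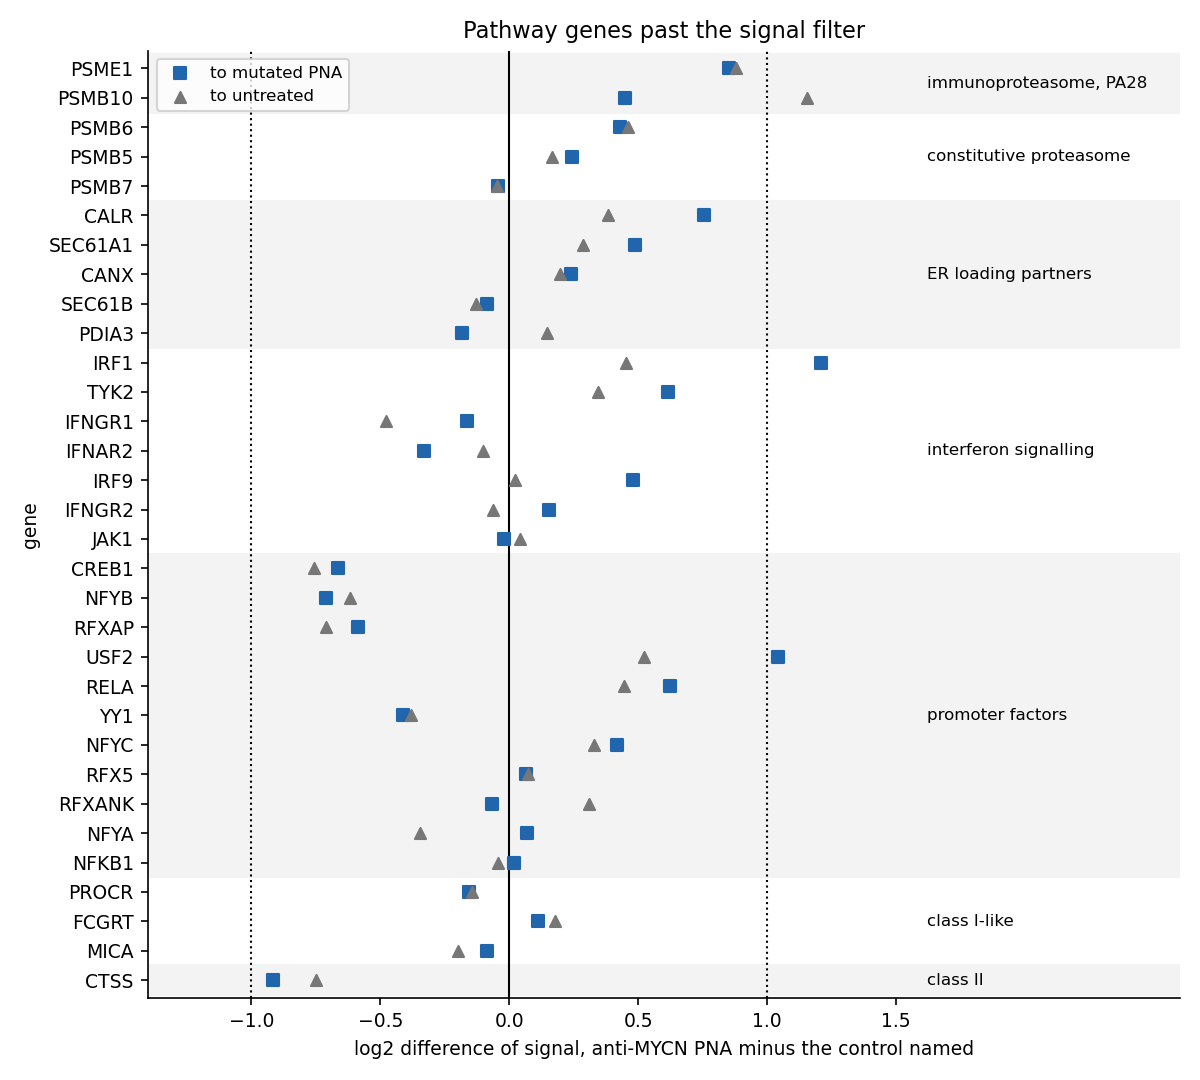
Log2 difference of signal, anti-MYCN PNA minus mutated PNA (squares) and minus untreated (triangles), for genes of the pathway lists whose brightest probe set passed the filter, with dotted lines at a 2-fold difference. PSME1 lies at 0.85 and 0.88, and CREB1, NFYB, RFXAP and CTSS lie between −0.59 and −0.92.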

How the data were processed

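What the authors deposited is 1 intensity on a linear scale for each probe set and array. It was produced by the MAS5 algorithm of the GCOS software, as the submitters' processing notes record. Scanner files and detection calls were not used here. Probe sets were named by GEO's platform annotation: of 22215 gene probe sets, 19064 name 1 gene, 1043 several and 2108 none, and 19052 had an Entrez identifier in the RefSeq table of GRCh38.p14, which gave current symbols. Arrays were scaled to a common 2% trimmed mean, which left the signals as they were, floored at the 25th percentile and put on the log2 scale. Signal classes are 10 equal groups of the 1-gene probe sets by mean signal. No test was made, as each condition has 1 array. Alternatives changed the scaling, floor, filter, choice of probe set and fold threshold.

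Genes and lists were chosen with earlier results of these data known. Named genes are all members and MYCN. From each list up to 4 genes past the filter are named, furthest from both controls in one direction. CD74, PTPRC, PSMB8, PSMB9, NFYA, NFYC, RFX5, RFXANK, MYOG, CHRNA1 and CHRNG were named after their values were seen. Versions were Python 3.11.15, pandas 2.3.3 with numpy 2.4.6, and matplotlib 3.10.9 for the figures.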

Additional observations from a re-analysis of the deposited data

How the results depend on the processing

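No paired analysis was possible because each condition has 1 array. Moves are judged against 0.28, the SD of the control difference over genes. With the deposited signals unscaled, without a floor, with a pseudocount of 16, and with quantile normalization or median scaling, the medians of the 4 genes past the filter stayed within that distance. Median scaling moved the median of all genes to −0.12 against mutated PNA and −0.14 against untreated, both at 0.06 before. The medians, 0.70 and 0.62 as reported against mutated PNA and untreated, were 0.15 and 0.14 with a filter at the 75th percentile, which keeps HLA-E and B2M, 0.19 and 0.21 when a gene's probe sets were summarised by their median, and 0.98 and 1.12 without _x_at and _s_at probe sets, which keeps HLA-E and TAPBP. Against mutated PNA the count of genes 2-fold apart in either direction, 0 as reported, was 4 of 9 with no filter (11.6% of all genes), 1 of 2 without those suffixes (5.37%) and 2 of 4 at 1.5-fold (23.8%). Against untreated, 1 as reported, it was 0 with quantile normalization, median scaling, the pseudocount, the stricter filter, the median over probe sets and a 3-fold threshold, 3 of 9 with no filter (11.9%), 2 of 2 without those suffixes (5.79%) and 2 of 4 at 1.5-fold (23.5%). TAPBP, at 1.01, sits at the threshold. Between the controls it was 1 of 9 with no filter (4.56%) and 0 in the other settings run. The filter on the mean of the controls was chosen after seeing the data. The median percentile of the 9 brightest probe sets, 54.5 in anti-MYCN PNA, 45.2 in mutated PNA and 48.7 in untreated cells, was 40.4, 35.1 and 32.6 with the median over probe sets. HLA-B, at −1.48 to mutated PNA as reported, turned to 0.018 with the median over probe sets, which takes the middle of its 3 probe sets at −1.48, 0.018 and 0.69. HLA-E, TAPBP, HLA-C, TAP1 and TAP2 were above both controls in every setting run on them. HLA-C, TAP1 and TAP2 were below the filter. Changes of scaling and floor do not test the choice of probe set, and TAP1 has only 1. No setting took TAP2 probe set 204769_s_at alone, which lay below mutated PNA by −0.22. HLA-F fell below both, by −0.014 and −0.11, with the median over probe sets. B2M was above untreated by 0.12 with that setting and below it in the other 6. ERAP1 was above mutated PNA in every setting run on it. Against untreated it was level as reported, −0.28 with quantile normalization, −0.20 with median scaling, and 1.19 and 1.23 with the other choices of probe set. Signals under the floor limit HLA-B and TAP1 most.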
